A study of Macaca mulatta with 9 samples.

Results

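LPL, LIPG, OSBPL3 and VNN2 were followed in the prostates of 9 rhesus monkeys (Macaca mulatta) whose mothers had received the dioxin TCDD or vehicle. The genes were chosen from their values on these same arrays: the authors' deposited table of probes that passed their criteria names all 4 as higher at both doses. They are 4 of the 1332 gene names in that table, and each has 1 probe. Their differences between doses are therefore a description and were given no test.

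Dams were injected under the skin with vehicle, 30 ng/kg or 300 ng/kg TCDD on gestation day 20. They were then given 5% of that dose again each 30 days, up to day 90 after delivery. Per the labels the prostates were collected 7 years after exposure, and 0.5 ug of total RNA per animal went to 1 single-colour Agilent array. Each group held 3 offspring, a vehicle group, a 30 ng/kg group and a 300 ng/kg group, and offspring are named by group and replicate number. The dose was given to the dam, and the labels give none for the offspring themselves. Whole prostates hold several cell types, and in such samples fewer cells of a type and less RNA per cell cannot be told apart.

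TCDD is a ligand of the aryl hydrocarbon receptor, a transcription factor whose targets include enzymes of xenobiotic metabolism. LPL, lipoprotein lipase, is secreted by parenchymal cells, is carried to the capillary wall, and releases fatty acids from the triglycerides of chylomicrons and very low density lipoproteins. LIPG, endothelial lipase, belongs to the same lipase family, is made largely by endothelial cells, and acts mainly on the phospholipids of high density lipoprotein. OSBPL3 is an oxysterol-binding-related protein that works at contacts between the endoplasmic reticulum and other membranes. VNN2, vanin 2, is a cell-surface pantetheinase of the vanin family, which splits pantetheine into pantothenate, the precursor of coenzyme A, and cysteamine, and it is best known from neutrophils.

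The 9 arrays differed in brightness. The 75th percentile of signal, to which every array was scaled, was 514 to 1193 in the vehicle group, 343 to 1356 at 30 ng/kg and 1258 to 2374 at 300 ng/kg. Of all spots, those well above background by the flag of the image software made up 66.68 to 79.22% in vehicle, 63.87 to 79% at 30 ng/kg and 79.32 to 83.85% at 300 ng/kg. Arrays lay on 3 slides: slide 1 held vehicle replicates 1 and 2, slide 2 held vehicle replicate 3 with 30 ng/kg replicates 1 and 2, and slide 3 held 30 ng/kg replicate 3 with all 300 ng/kg arrays. Vehicle and 300 ng/kg arrays shared no slide. Over all 15160 probes tested with limma, no probe passed a Benjamini-Hochberg adjusted p of 0.05 in any comparison, and the smallest adjusted p was 0.158 for 300 ng/kg against vehicle, 0.946 for 30 ng/kg against vehicle and 0.104 between the doses. At an unadjusted limma p under 0.05 the counts were 2357 (15.5%), 766 (5.05%) and 3130 (20.6%) of 15160, in the same order. Of 8 luminal markers of the prostate, KLK3, MSMB and TGM4 were named in the authors' table, which was selected on these arrays. All 3 were well above background on every array. Their summed signal was 626 to 950 times the scaling percentile in vehicle, 613 to 1960 at 30 ng/kg and 406 to 484 at 300 ng/kg. KLK3 was the brightest of the 3 on every array, and its spots were saturated on 6 arrays, so the sum is a lower bound there. TGM4 also made up a large part on 300 ng/kg replicates 1 and 3. Its scaled log2 values there were 6.81 and 7.41, against 8.05 and 8.08 for KLK3. TGM4 and MSMB did not move alike at 300 ng/kg: TGM4 differed from vehicle by 8.87 ± 1.44 (SE) and MSMB by −0.73 ± 0.36 (log2). KLK3 as scaled differed by −1.18 ± 0.49. A saturated signal cannot rise further, while the percentile it was divided by was larger at 300 ng/kg. Neither size nor sign of the KLK3 difference is therefore resolved.

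As scaled and floored here, the 4 genes showed 3 courses over dose. LPL was higher at both doses to a like extent, OSBPL3 was higher at 300 ng/kg, and LIPG and VNN2 stood out at 300 ng/kg. At 30 ng/kg OSBPL3 and LIPG were both measured on 1 of 3 arrays, and VNN2 on none. The split of LIPG from OSBPL3 depends on the floor. With low signals floored before scaling, LIPG was 1.04 and OSBPL3 1.26 above vehicle at 30 ng/kg (log2), against 0.18 and 1.04 with the floor after scaling. In scaled signal no 300 ng/kg array overlapped the vehicle arrays for any of the 4, a pattern of higher values seen in 11.5% of all tested probes. The rule that chose the genes used this contrast, so the count is not evidence about them. The median of the 4 fitted differences, with unmeasured signals at their floored value, was 2.08 on the log2 scale at 300 ng/kg and 0.61 at 30 ng/kg, beside −0.01 and 0.02 over all tested probes. Both doses were set against the same vehicle arrays.

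LPL was the one gene of the 4 that was measured well above background on all 9 arrays. Before scaling, its processed signal was 606, 1076 and 1097 in vehicle replicates 1 to 3, then 1437, 3561 and 1141 at 30 ng/kg, and 2965, 5961 and 5206 at 300 ng/kg. All exposed arrays were brighter than every vehicle array, although 30 ng/kg replicate 3 exceeded the brightest vehicle array by little. After scaling to the 75th percentile of each array, log2 LPL was 0.24, −0.15 and 0.46 in vehicle, 2.07, 1.39 and 1.65 at 30 ng/kg, and 1.24, 1.89 and 1.13 at 300 ng/kg. The vehicle arrays were the lowest of the 9, without overlap, and the 2 dose groups overlapped each other. The group means were 0.18 ± 0.31, 1.7 ± 0.34 and 1.42 ± 0.41 (SD, n = 3 each).

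The LPL difference from vehicle was 1.52 ± 0.29 (SE) on the log2 scale at 30 ng/kg, or 2.87-fold, and 1.24 ± 0.29 at 300 ng/kg, or 2.35-fold. Between the doses it was −0.29 ± 0.29, so the order of the doses was not resolved by 3 animals a group. It turned to 0.13 when array brightness entered the model as a covariate. The LPL difference ranked 111 from the top among 15160 probes at 30 ng/kg and 411 at 300 ng/kg. Within slide 2, where 1 vehicle array met 2 arrays of 30 ng/kg, LPL was 1.27 higher at 30 ng/kg. Within slide 3 the 300 ng/kg arrays differed from the single 30 ng/kg array by −0.23.

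**Figure D1:**
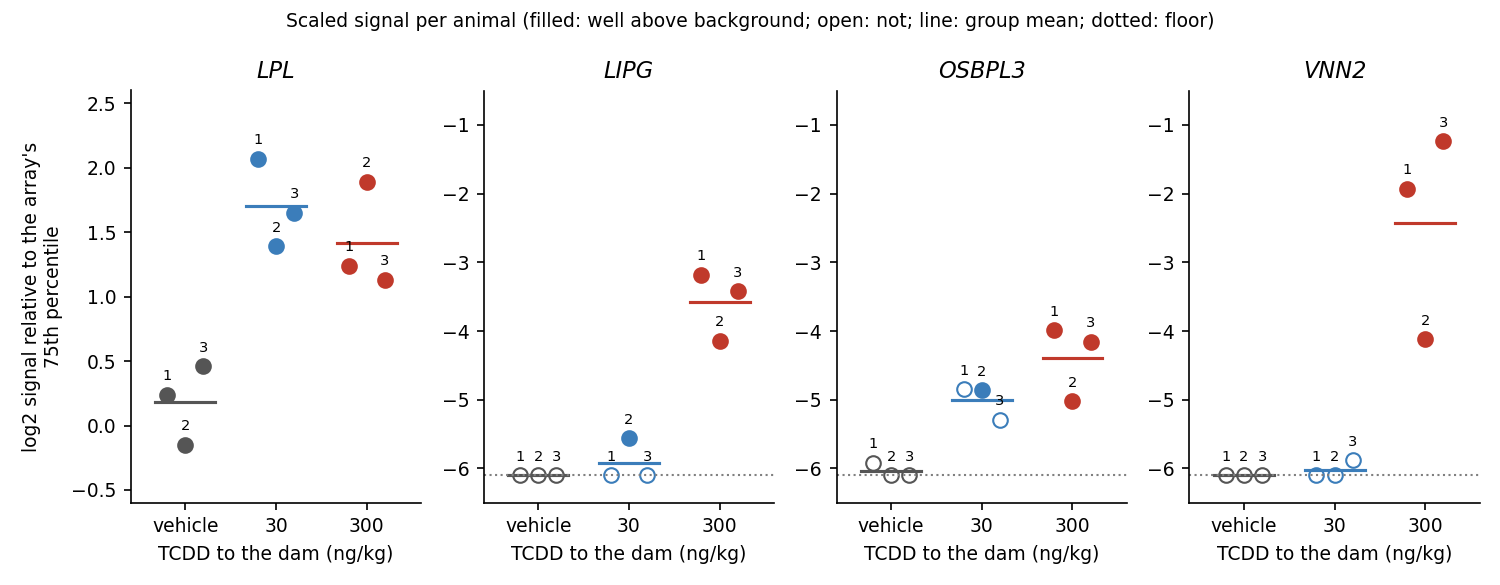
Scaled signal of each gene on each of the 9 arrays, as log2 of processed signal over the 75th percentile of its array, against the dose given to the dam (vehicle, 30 or 300 ng/kg), with filled points for arrays well above background, open points for the others, lines at the group means (n = 3) and a dotted line at the floor of −6.10. LPL separated both doses from vehicle, while LIPG and VNN2 were at or near the floor in vehicle and at 30 ng/kg and lay between −4.14 and −1.24 at 300 ng/kg.

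LIPG, the second lipase, was dim. Its unscaled processed signal was 5.16, 8.10 and 5.74 in vehicle, none of them well above background. At 30 ng/kg it was 1.99, 28.7 and 1.1, and at 300 ng/kg 139, 91.3 and 221. All 300 ng/kg arrays were well above background, whereas at 30 ng/kg replicate 2 alone was. The signals of the other 2 arrays of that group and of the vehicle arrays were too low to be ordered.

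On the scaled log2 scale LIPG was at the floor of −6.10 on all 3 vehicle arrays and on replicates 1 and 3 of 30 ng/kg. It was −5.56 in 30 ng/kg replicate 2, and −3.18, −4.14 and −3.42 at 300 ng/kg. The 300 ng/kg arrays did not overlap either of the other groups, and the other groups overlapped at the floor. Values at the floor have no order. In scaled signal LIPG was at least 4.50-fold higher at 300 ng/kg than in vehicle. The bound sets the group mean of −3.58 ± 0.5 (SD, n = 3) against the dimmest signal that vehicle arrays could show well above background. It does not hold under normexp background correction, where the difference was 0.59 ± 0.59 (SE, log2). With the floor value itself in place of the unmeasured vehicle signals, the difference was 2.52 ± 0.29 (SE) on the log2 scale, rank 60 of 15160.

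For LIPG at 30 ng/kg the corresponding difference was 0.18 ± 0.29, and it rested on replicate 2, the brightest array of that group: without that array it was 0. The 2 spots of the LIPG probe differed most on 300 ng/kg replicate 2, at 50 and 133 signal units. That array held the lowest LIPG value of its group. On the other arrays where LIPG was well above background its spots lay within 0.287 of each other on the log2 scale.

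VNN2 had the widest difference of the 4. Its unscaled signal was 2.93, 5.06 and 7.80 in vehicle and 3.18, 8.16 and 6.15 at 30 ng/kg, and none of these 6 arrays was well above background. At 300 ng/kg it was 331, 92.9 and 1004, well above background on every array. The groups at 0 and 30 ng/kg overlapped throughout, and the 300 ng/kg animals stood apart from both while spanning a 10.8-fold range among themselves. Replicate 3 was the highest and replicate 2 the lowest.

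On the scaled log2 scale VNN2 was at the floor in vehicle, at −6.10, −6.10 and −5.88 at 30 ng/kg, and at −1.93, −4.12 and −1.24 at 300 ng/kg. The mean at 300 ng/kg was −2.43 ± 1.5 (SD, n = 3), the largest spread among the 4 genes and 3 groups. By its group mean in scaled signal, VNN2 was at least 10-fold higher at 300 ng/kg than in vehicle and at least 6.66-fold higher than at 30 ng/kg. These bounds do not hold under normexp background correction, where the differences were 1.52 ± 0.80 and 0.73 ± 0.80 (SE, log2). The fitted difference from vehicle, with vehicle at the floor, was 3.67 ± 0.61 (SE) on the log2 scale and ranked 20 of 15160. It was 3.08 without 300 ng/kg replicate 3 and 4.52 without replicate 2, which changed the size by over 1.5 times on the linear scale and not its direction. Between 30 ng/kg and vehicle, where VNN2 was nowhere well above background, the fitted 0.07 ± 0.61 compares unmeasured signals and gives them no order.

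VNN1 and VNN3, 2 relatives of VNN2, lie next to it in the macaque reference annotation. The VNN2 probe is annotated to a human transcript, as are those of LIPG and OSBPL3, whereas the LPL probe is annotated to a predicted macaque transcript. Whether the VNN2 probe also binds RNA of its relatives was not tested. Its 2 spots agreed within 0.287 on the log2 scale on all 300 ng/kg arrays.

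OSBPL3 was intermediate. Its unscaled signal was 8.51, 11.2 and 11.4 in vehicle, 11.9, 46.8 and 9.28 at 30 ng/kg, and 79.0, 49.7 and 133 at 300 ng/kg. It was well above background on all 300 ng/kg arrays and, outside that group, on 30 ng/kg replicate 2, whose signal was close to the dimmest 300 ng/kg array. Unscaled, replicates 1 and 3 of 30 ng/kg were within or next to the range of the vehicle arrays.

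After scaling, OSBPL3 was −5.92, −6.10 and −6.10 in vehicle, −4.85, −4.86 and −5.29 at 30 ng/kg, and −3.99, −5.02 and −4.16 at 300 ng/kg. Vehicle did not overlap the 300 ng/kg arrays, and the 2 dose groups overlapped each other. The means were −6.04 ± 0.11, −5 ± 0.25 and −4.39 ± 0.55 (SD, n = 3 each). In scaled signal OSBPL3 was at least 2.57-fold higher at 300 ng/kg than in vehicle. Its fitted difference was 1.65 ± 0.29 (SE) on the log2 scale, rank 198 of 15160. Under normexp background correction the bound does not hold, and the difference was 0.02 ± 0.56. At 30 ng/kg the fitted difference was 1.04 ± 0.29, and it rests on arrays where the probe was mostly not measured. Replicates 1 and 3 of that group were the dimmest arrays of the study, and the lowest signals marked well above background there were −4.70 and −4.69, above their OSBPL3 values.

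**Figure D2:**
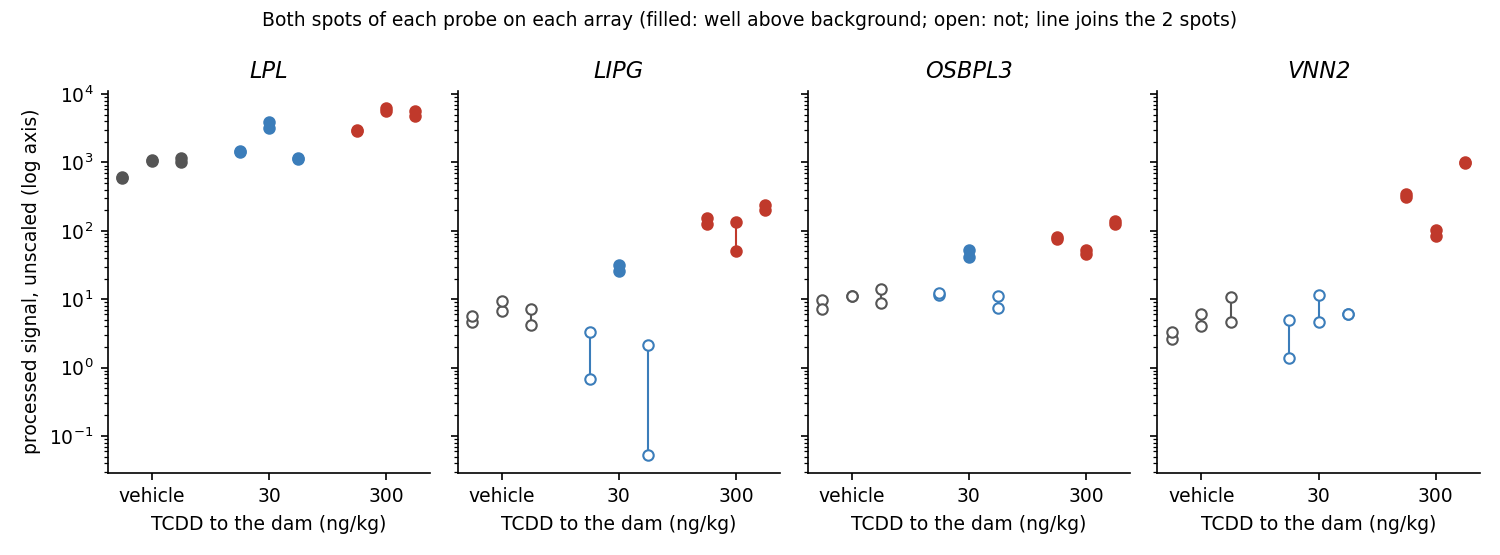
Unscaled processed signal of both spots of each probe on each array (log axis), by dose given to the dam, with filled points for spots well above background, open points for the others and a line joining the 2 spots of an array. Array means of LPL lay between 606 and 5961 on all arrays, and LIPG on 300 ng/kg replicate 2 had the widest gap among measured spot pairs, 50 against 133.

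Detection of the 3 dim genes separated 300 ng/kg from vehicle, and each 300 ng/kg array was also brighter than each vehicle array by its 75th percentile. LIPG, OSBPL3 and VNN2 were well above background on 0 of 3 vehicle arrays and on all 3 arrays of 300 ng/kg, a pattern that 274 of the 15160 tested probes (1.81%) shared. With the further condition of no 30 ng/kg array, 112 probes (0.739%) remained, VNN2 among them. Fewer probes, 9 (0.0594%), were well above background on all 30 ng/kg arrays and no vehicle array, and none of the 4 genes was one of them. LIPG, OSBPL3 and VNN2 entered the tested probes through the 300 ng/kg group alone. The 1.81% and their ranks at 300 ng/kg are therefore no evidence about them. These values also chose the genes in part and are given as description.

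Because the 300 ng/kg arrays were brighter as a group, the genes were also read on 3 arrays of like brightness, chosen after the data were seen: vehicle replicate 2, 30 ng/kg replicate 2 and 300 ng/kg replicate 1, with 75th percentiles of 1193, 1356 and 1258. LPL was 1076, 3561 and 2965 there. LIPG was 8.10, 28.7 and 139, and OSBPL3 was 11.2, 46.8 and 79.0. VNN2 was 5.06, 8.16 and 331. On these arrays, 1 animal per dose, LIPG, OSBPL3 and VNN2 were highest at 300 ng/kg, and LPL was higher on both exposed arrays than on the vehicle array. The vehicle signals of the 3 dim genes and the VNN2 signal at 30 ng/kg were not well above background, and this 30 ng/kg array was the one of its group where LIPG and OSBPL3 were. With brightness as a covariate the differences at 300 ng/kg were 1.52 for LPL, 2.33 for LIPG, 1.61 for OSBPL3 and 3.57 for VNN2, on the log2 scale.

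Slide could be set against dose in part. With slide as a fixed block, the differences between 300 ng/kg and vehicle were 1.04 ± 0.63 (SE) for LPL, 2.79 ± 0.63 for LIPG, 2.15 ± 0.63 for OSBPL3 and 3.45 ± 1.41 for VNN2, and they rest on the single 30 ng/kg array of slide 3 and the single vehicle array of slide 2. Within slide 3, the 300 ng/kg arrays exceeded that 30 ng/kg array by 2.52 for LIPG, 0.90 for OSBPL3 and 3.45 for VNN2. Within slide 2, the 30 ng/kg arrays exceeded the vehicle array by 0.27 for LIPG and 1.25 for OSBPL3, and VNN2 was at the floor on all 3 arrays.

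**Figure D3:**
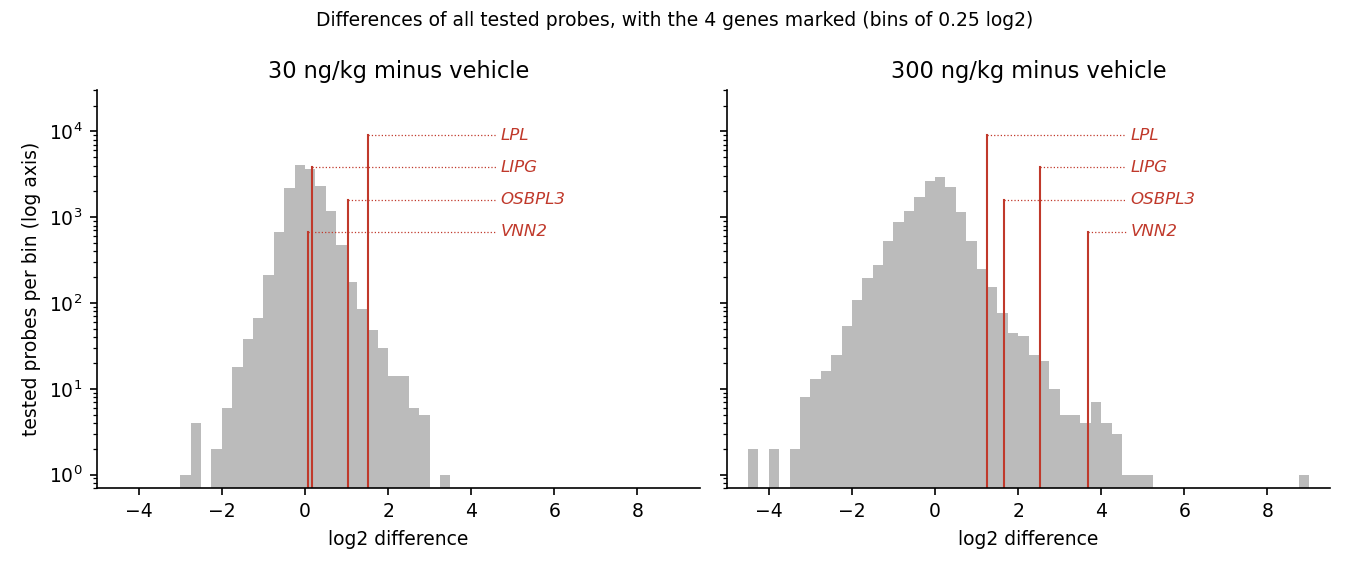
Number of tested probes (log axis) by log2 difference from vehicle in bins of 0.25, at 30 ng/kg (left) and 300 ng/kg (right), with red lines at the 4 genes, whose heights carry no value. At 300 ng/kg all 4 lines lie in the upper tail, from 1.24 for LPL to 3.67 for VNN2, while at 30 ng/kg LIPG and VNN2 lie within the bulk at 0.18 and 0.07.

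Between the doses, LIPG and VNN2 were higher at 300 than at 30 ng/kg without overlap. The fitted differences were 2.34 ± 0.29 and 3.60 ± 0.61 (SE) on the log2 scale, against a 30 ng/kg group where LIPG was measured on 1 of 3 arrays and VNN2 on none. Higher values without overlap in that comparison were seen in 11.2% of tested probes. OSBPL3 differed between the doses by 0.61 ± 0.29, with overlapping groups. With normexp background correction these differences were −0.35 ± 0.59 for LIPG, 0.73 ± 0.80 for VNN2 and −1.01 ± 0.56 for OSBPL3. The sign for LIPG and OSBPL3 turned, but the median tested probe was at −0.50 there. Relative to that median, LIPG was 0.15, VNN2 1.23 and OSBPL3 −0.51. Against the 75th percentile, the normexp offset was −2.99, −4.80 and −3.45 (log2) at 30 ng/kg. At 300 ng/kg it was −4.73, −5.05 and −5.60. The part of this offset in the turned signs was not tested. At 30 ng/kg against vehicle, LPL did not overlap, and higher values without overlap were seen in 4.93% of tested probes. The scaled OSBPL3 values of that comparison did not overlap either, but they come from 2 unmeasured arrays at 30 ng/kg and 3 in vehicle. Higher scaled values without overlap at both doses occurred in 229 probes (1.51%), LPL and, with that limit, OSBPL3 among them.

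The genes did not order the animals alike within a group. At 300 ng/kg, replicate 2 held the lowest LIPG, OSBPL3 and VNN2 and the highest LPL. Over the 9 arrays Pearson's r between scaled log2 values was 0.963 for LIPG and VNN2, 0.812 for LIPG and OSBPL3, and 0.792 for OSBPL3 and VNN2. After each group's mean was taken off, these were 0.729, 0.861 and 0.795. LPL had an r of 0.283 with LIPG, 0.635 with OSBPL3 and 0.199 with VNN2, and within groups −0.758, −0.527 and −0.666. The points share 9 arrays and their scaling, many LIPG and VNN2 values sit at the floor, and the correlations are given without a test.

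Named genes with the most similar course were ranked by Pearson's r over the 9 arrays among 1186 named and tested genes. Nearest to LPL were NDST4 (r = 0.918, Spearman's rho = 0.933), CDH2 (r = 0.902, rho = 0.817) and ST8SIA1 (r = 0.89, rho = 0.9). NDST4 differed from vehicle by 2.28 ± 0.63 (SE) at 30 ng/kg and 1.83 ± 0.63 at 300 ng/kg, and CDH2, N-cadherin, by 1.13 ± 0.31 and 0.88 ± 0.31, on the log2 scale. Like LPL, both separated each dose from vehicle and overlapped between the doses.

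LIPG was nearest to MYO1D (r = 0.976, rho = 0.895), TGM4 (r = 0.974, rho = 0.895) and LOC694670 (r = 0.964, rho = 0.803). VNN2 was nearest to C20orf133 (r = 0.976, rho = 0.9), TGM4 (r = 0.974, rho = 0.749) and DERL2 (r = 0.972, rho = 0.639). TGM4, a transglutaminase of prostatic secretion, is thus among the nearest genes of both, with a difference of 8.87 ± 1.44 (SE) at 300 ng/kg and 1.04 ± 1.44 at 30 ng/kg. OSBPL3 was nearest to HIST2H2BE (r = 0.962, rho = 0.954), TPT1 (r = 0.954, rho = 0.937) and LOC151871 (r = 0.951, rho = 0.945). Likeness was sought among genes that the authors had selected on these arrays. The r values also share the dose groups and are given without a test.

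Of 144 other genes on lists of lipases, lipase regulators, lipid uptake, sterol transfer, pantetheinases, lipid synthesis and fatty acid oxidation, 8 are named in the authors' table and 5 could be tested. No list gene passed an adjusted p of 0.05 in any comparison (limma, Benjamini-Hochberg). At 300 ng/kg against vehicle, 2 were higher and 2 lower at an unadjusted p under 0.05, where the background was 7.38% of tested probes higher and 8.17% lower. Their median difference over the 5 was −0.67, beside 2.08 for the 4 chosen genes and −0.01 for all tested probes. The names come from a table selected on these arrays, so the share of list genes with a low p is no measure of the pathway.

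FADS2, the desaturase that starts the synthesis of long polyunsaturated fatty acids, was 1.27 ± 0.39 (SE) higher at 300 ng/kg on the log2 scale (limma, adjusted p = 0.27). LPIN2, a phosphatidate phosphatase of triglyceride synthesis, was 0.73 ± 0.28 higher (limma, adjusted p = 0.301). PNPLA3, a lipase of lipid droplets, was lower, with a difference of −1.21 ± 0.36 (limma, adjusted p = 0.267). CPT1A, which commits fatty acids to mitochondrial oxidation, had −1.40 ± 0.53 (limma, adjusted p = 0.299). ACACB, the acetyl-CoA carboxylase whose product inhibits CPT1, had −0.67 ± 0.37 (limma, adjusted p = 0.389). FADS2 and LPIN2 thus had the sign of LPL and LIPG, the other 3 had the opposite sign, and none of the 5 passed the adjusted test.

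At 30 ng/kg none of the 5 had an unadjusted limma p under 0.05, and their median was 0.14. CPT1A was 1.13 ± 0.53 (SE) and ACACB 0.76 ± 0.37 above vehicle on the log2 scale, opposite in sign to 300 ng/kg. Between the doses 2 list genes were higher at 300 ng/kg and 3 lower at an unadjusted limma p under 0.05, beside 8.12% and 12.5% of tested probes. CPT1A differed by −2.53 ± 0.53 (limma, adjusted p = 0.16), and its unscaled signal was 83.2, 113 and 73.8 at 30 ng/kg against 38.4, 57.7 and 46.9 at 300 ng/kg. The dose groups did not overlap, although the 300 ng/kg arrays were brighter overall.

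Some list genes were too dim to be tested. CETP, which moves cholesteryl esters between lipoproteins, was well above background on vehicle replicate 2 and 30 ng/kg replicate 2, at 33.2 and 103 signal units, and on no 300 ng/kg array. PANK3, a pantothenate kinase of coenzyme A synthesis, was above it on replicates 2 and 3 of 300 ng/kg, at 17.0 and 22.9. Its signal on 30 ng/kg replicate 2 was 28.4, not marked well above background. After scaling, PANK3 was at the floor on all vehicle and all 300 ng/kg arrays, so no difference between these groups was seen.

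**Figure D4:**
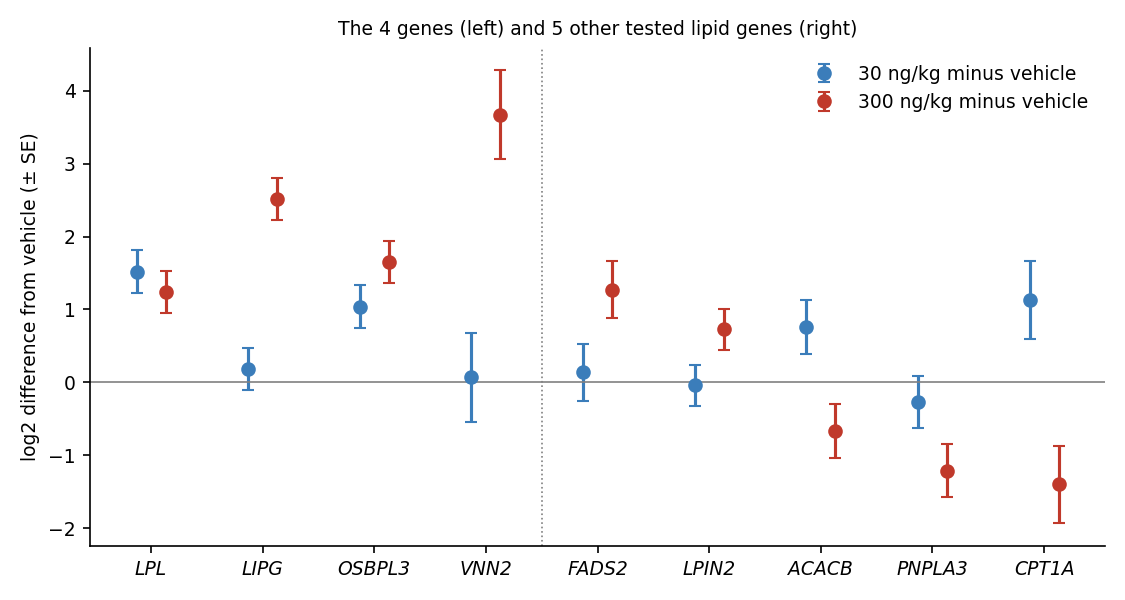
Log2 difference from vehicle (± SE of the limma fit, 3 arrays a group) at 30 ng/kg (blue) and 300 ng/kg (red) for the 4 genes, left of the dotted line, and the 5 other lipid genes that were tested, right of it. At 300 ng/kg the 4 genes, FADS2 and LPIN2 lie above 0 and ACACB, PNPLA3 and CPT1A below it, and LIPG, OSBPL3 and VNN2 were well above background on no vehicle array and are drawn with their floored values there.

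LPL and LIPG are made by particular cell types, so markers of those cells were set beside them. None of 8 adipocyte, 8 macrophage or 8 neutrophil markers carries a name in the table, and these cells were not analysed here. Of 8 endothelial markers PECAM1 alone was named. Its scaled signal, in units of the 75th percentile, was 0.916 to 1.22 in vehicle, 2.19 to 3.04 at 30 ng/kg and 0.679 to 1.28 at 300 ng/kg. PECAM1 was 1.31 ± 0.29 (SE) above vehicle at 30 ng/kg (limma, adjusted p = 0.946) and 0.00 ± 0.29 at 300 ng/kg (limma, adjusted p = 0.998). PECAM1 was thus higher at 30 ng/kg, as LPL was, and at 300 ng/kg, where LIPG was highest, it was at the vehicle level. Markers carry names only through the authors' table, which was selected for differences on these arrays, so unchanged markers cannot be seen. PECAM1 alone is therefore no measure of endothelial content.

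The summed signal of 2 of 6 fibroblast markers, COL1A1 and COL1A2, was 6.72 to 8.01 in vehicle, 5.93 to 8.52 at 30 ng/kg and 10.8 to 20.0 at 300 ng/kg. It was thus highest where LIPG and VNN2 were. Sums for 2 of 6 smooth muscle markers, TPM2 and LMOD1, were 222 to 339, 243 to 449 and 117 to 199. Sums for 2 of 6 basal epithelial markers, S100A2 and ITGB4, were 4.53 to 6.96, 7.72 to 10.3 and 5.96 to 6.35, nearly all of it ITGB4. S100A2 differed from vehicle by −0.69 ± 0.57 (SE) at 30 ng/kg and 1.55 ± 0.57 at 300 ng/kg (log2), and ITGB4 by 0.72 ± 0.24 and 0.21 ± 0.24. These markers too are named only through the selected table, so their sums are no measure of cell content. The part of such shifts in the values of the 4 genes was not tested.

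**Figure D5:**
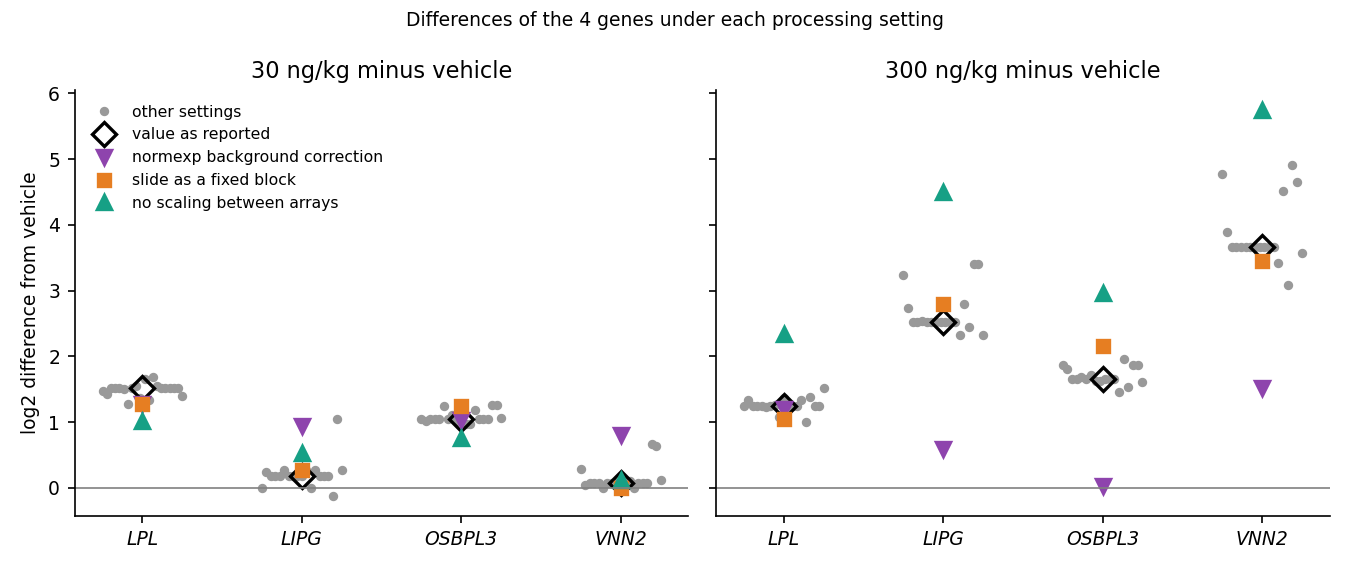
Log2 difference from vehicle of each of the 4 genes under every processing setting tried, at 30 ng/kg (left) and 300 ng/kg (right), with the reported value as an open diamond, 3 settings marked by symbol and the others in grey. LPL stayed between 1.00 and 2.34 at 300 ng/kg, while under normexp background correction LIPG was 0.59, OSBPL3 0.02 and VNN2 1.52.

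The dim genes depended on how background was treated, as the plot of processing settings shows. With normexp background correction and an offset of 50, the differences at 300 ng/kg were 1.20 ± 0.29 (SE) for LPL, 0.59 ± 0.59 for LIPG, 0.02 ± 0.56 for OSBPL3 and 1.52 ± 0.80 for VNN2. The median of all tested probes moved to −0.22 under that setting, and relative to it the values were 1.42, 0.81, 0.24 and 1.74. Against the 75th percentile of its array, that offset lay between −2.99 and −5.60 (log2), highest on 30 ng/kg replicate 1 and lowest on 300 ng/kg replicate 3. The higher OSBPL3 at 300 ng/kg rests on signals between 49.7 and 133 units and is not seen under that correction, and LIPG there differs from 0 by no more than its SE.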

How the data were processed

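Total RNA from 9 prostates was measured on 9 arrays and grouped by the dose in the labels. Per the file headers, the authors used Feature Extraction 9.5.1.1 (9.5 in the submitters' processing notes). The deposited processed signal is an intensity, background-subtracted for each array on its own. Median spot and background signals, used for normexp, are deposited intensity values too. The well-above-background marks are those of the deposited files. The authors' deposited table gives log2 group means and a fold, a ratio with its direction beside it, for the 1502 probes that met its limits: a fold of 1.5 or more and an analysis of variance p of 0.05 or less. Its 9 per-sample flag columns were not used.

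Gene names came from that table, and 858 of 1332 were found in the macaque reference. Each of 20217 probes had 2 spots. Outlier spots were left out, and none belonged to the 4 genes. Signals were averaged per probe, divided by the 75th percentile of the array, floored at −6.10 log2 (5 units on the dimmest array) and analysed as log2 values. The 15160 probes well above background on all arrays of 1 or more groups were tested, and 5057 were not. One limma 3.58.1 fit (R 4.3.3) held all 9 arrays with group as its term, with 6 residual and 2.99 prior degrees of freedom and a median residual SD of 0.40. P-values are 2-sided and adjusted over all tested probes. The fit was tested on simulated data. The number of arrays limits the precision. A p-value sets a group difference against the spread within groups, which holds differences between offspring and between arrays alike.

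Where a probe was well above background on no array of a group, its fold is a lower bound for the scaled signal and not for other background corrections. Named genes were the 4 genes, list and marker genes, and the 3 named genes closest to each by Pearson's r. The genes, lists and tests were chosen with earlier results of these data known. Alternatives are in the closing section. The floor before scaling, brightness as a covariate and no scaling were added after the data were seen. normexp used median signals and an offset of 50. Probe sequences and genome positions were not used here. One list gene is not reported here.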

Additional observations from a re-analysis of the deposited data

How the results depend on the processing

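Of 263 values of the 4 genes under other settings, 234 moved by less than the spread between replicates, and 29 did not. The 234 include values that could not move, so their number is no measure of robustness. Those come from changed probe filters, the compared groups fitted alone, replicate number as a block, and left-out arrays outside the comparison. In all, 6 of the 263 values had the opposite sign. For 300 against 30 ng/kg with normexp, LIPG gave −0.35 and OSBPL3 −1.01, where the median probe was at −0.50, and LPL gave 0.13 with brightness as a covariate. LIPG at 30 ng/kg against vehicle gave −0.01 with quantile normalization and −0.13 with a floor of 1 unit. Without scaling between arrays the median probe moved by 1.1, −0.49 and 1.58 for 300 ng/kg against vehicle, 30 ng/kg against vehicle and 300 against 30 ng/kg, and LPL between the doses read 1.33, also of opposite sign. Leaving out 1 array at a time gave 1.00 to 1.38 for LPL, 2.32 to 2.80 for LIPG, 1.45 to 1.96 for OSBPL3 and 3.08 to 4.52 for VNN2 at 300 ng/kg.

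Probes with an unadjusted limma p under 0.05 numbered 1389 (461 higher, 928 lower) at 300 ng/kg and 440 (355 higher, 85 lower) at 30 ng/kg with normexp, against 1119 higher and 1238 lower, and 489 higher and 277 lower, as reported. They numbered 1552 (278 higher, 1274 lower) at 30 ng/kg with slide as a fixed block, 1116 at 300 ng/kg and 528 between the doses with brightness as a covariate, and 200 at 30 ng/kg and 8551 between the doses without scaling. Leaving out 1 array gave 997 (without 300 ng/kg replicate 3) to 2860 (without 300 ng/kg replicate 2) at 300 ng/kg. It gave 410 (without 30 ng/kg replicate 3) to 1937 (without 30 ng/kg replicate 2) at 30 ng/kg, and 1592 (without 30 ng/kg replicate 1) to 4629 (without 30 ng/kg replicate 2) between the doses. Other arrays that moved a count by over 1.5 times were vehicle replicate 1 (1418 at 300 ng/kg), vehicle replicate 2 and 30 ng/kg replicate 1 (503 and 438 at 30 ng/kg), and 30 ng/kg replicate 3 and 300 ng/kg replicate 3 (1718 and 1618 between the doses). Adjusted calls, 0 as reported, numbered 271 at 300 ng/kg without 300 ng/kg replicate 2, 155 between the doses without that array, 774 between the doses without 30 ng/kg replicate 2, and 6 at 30 ng/kg with slide as a fixed block. Without scaling they numbered 373 at 300 ng/kg and 5798 between the doses. The count of lipid list genes at 300 ng/kg, 4 as reported, was 2 with normexp, with slide as a fixed block and without scaling, 1 with brightness as a covariate, and 2 to 5 with 1 array left out. The cause of these moves was not tested.

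Groups share replicate numbers, but deviations of same-numbered animals correlated from −0.256 to 0.543, so the numbers were not taken to pair them. With replicate number as a block the counts were 2461, 923 and 3262. The differences of the 4 genes cannot change under that block, since each group holds each number once. A filter on all 9 arrays keeps LPL alone. Depth limits LIPG, OSBPL3 and VNN2: the lowest signals well above background were 12 to 15.7 units per array, and levels under these cannot be ordered.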

Other observations

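The sizes of the 3 dim genes in the authors' deposited table depend on the order of flooring and scaling. The authors' deposited table lists, against vehicle, folds of 2.87 at 30 ng/kg and 2.36 at 300 ng/kg for LPL, 2.05 and 10.6 for LIPG, 2.40 and 3.66 for OSBPL3, and 1.54 and 25.2 for VNN2. By its fold at 300 ng/kg the authors' deposited table ranks VNN2 2, LIPG 8, OSBPL3 48 and LPL 143 of 1502 probes. Setting signals under 5 units to 5 before scaling to the 75th percentile matched the log2 folds in the authors' deposited table within 0.01 (log2) at both doses for 1479 of its 1502 probes. Scaling before the floor matched them for 1224.

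With the floor before scaling, LIPG was 1.04 above vehicle at 30 ng/kg on the log2 scale and VNN2 0.63. With the floor after scaling these were 0.18 and 0.07. LIPG was well above background on 1 array of 30 ng/kg and on no vehicle array, and VNN2 on none of these 6 arrays, so most of the signals compared are unmeasured. At 300 ng/kg the floor before scaling gave 3.41 for LIPG and 4.65 for VNN2, against 2.52 and 3.67. LPL, bright on all arrays, read 1.52 and 1.24 either way.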
